A study of Mus musculus with 8 samples.

Results

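The hepcidin and iron regulation genes are 10 genes of iron control, *Hamp*, *Hamp2*, *Hfe*, *Hfe2*, *Tfr2*, *Tfrc*, *Tmprss6*, *Bmp6*, *Id1* and *Slc40a1*, among the 23337 gene symbols counted in each liver library. They were chosen by name, with earlier results from these same counts known, so their own differences between groups are given as description. Counts of these genes past a threshold in the fit to all genes are printed beside the share of all genes, and nothing is read from them. All 10 were found by symbol, and all 10 passed the filter on low counts together with 14328 genes in all. RNA-seq was performed on liver of C57BL/6 mice aged 12 weeks, either WT or HRD1Alb (genotype label Hrd1-/-), with 2 libraries in each of 4 groups and 8 in all. In HRD1Alb mice the floxed *HRD1* gene, *Syvn1* in the files, is deleted by Cre under the albumin promoter, which is active in hepatocytes. Per the paper this deletion begins early in liver development, and the labels do not say which other liver cells keep the gene. WT fasted and HRD1Alb fasted mice had been fasted overnight, and WT refed and HRD1Alb refed mice had been fasted overnight and then fed again for 4 h. All mice were on standard chow, and the labels give no time of day of collection and do not say whether the 2 libraries of a group came from separate mice, so that the spread between them may be partly technical.

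Hepcidin is a peptide hormone that hepatocytes release into blood. It binds ferroportin, the iron exporter of macrophages, hepatocytes and intestinal cells, and causes its degradation, so that less iron enters the plasma. Hepatocytes set hepcidin transcription mainly through bone morphogenetic protein (BMP) receptors and SMAD proteins, with hemojuvelin, HFE and transferrin receptor 2 as iron-linked partners and the protease TMPRSS6 as a brake. Inflammation raises hepcidin through IL-6 and STAT3, and stress of the endoplasmic reticulum, where HRD1 acts as a ubiquitin ligase, has been linked to hepcidin as well.

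Total counts ranged from 40210576 to 49117080 per library, and values are given as CPM, the counts scaled to a common library size after TMM normalization, as mean ± SD (n = 2). A count of 3, taken as the detection floor, equals 0.0508 to 0.0788 CPM. *Syvn1* was at 111 and 99.8 CPM in WT fasted liver against 32.6 and 31.5 CPM in HRD1Alb fasted liver. In refed liver it was at 637 and 305 CPM in WT against 453 and 132 CPM in HRD1Alb, so the library labelled HRD1Alb refed replicate 1 lay inside the WT range and its targeted gene goes against its label. These counts cover the whole gene and the deleted exons are not given in the labels, which limits this check. The libraries labelled HRD1Alb refed also stood apart from each other: their Spearman correlation was 0.955, against 0.99 to 0.995 in the other groups, and their log ratio fell with transcript length (rho = -0.581, against -0.111 to 0.031). For *Ddit3*, picked after its values were seen, they were alike, at 251 and 241 CPM against 16.1 and 11.3 CPM in WT refed liver. Whether the label of replicate 1 is right was not tested. Of the hepatocyte markers, *Alb* and *Apoa1* were abundant in every library, whereas *Ass1* was at 0.563 to 2.67 CPM. Markers of stellate cells were called as higher by edgeR in refed HRD1Alb liver for 3 of 7 genes and those of cycling cells for 2 of 8. There 0 of 5 cholangiocyte markers were called, with 1 at an unadjusted p under 0.05, beside 11.9% of all genes. DESeq2 called 5, 5 and 0 of these sets in refed liver (22.3% of all genes). In fasted liver edgeR called 0 in each set (1.35% of all genes), with 2, 5 and 2 at an unadjusted p under 0.05. DESeq2 called 0, 4 and 0 in fasted liver (7.64% of all genes).

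Per base of transcript, hepcidin mRNA was the most abundant of the 10 genes in every group. The stretches of promoter that hold its best known control sites are shown because both copies of the mouse hepcidin gene, *Hamp* and *Hamp2*, lie side by side and differ at one of these sites. *Hamp* lies on the minus strand of chromosome 7 (30942368 to 30944032, GRCm38, GENCODE M21 annotation) and *Hamp2* on the same strand at 30922372 to 30924681. The sequences come from RefSeq on GRCm38.p6 and cover 60 bases, from 120 to 61 bases before the RefSeq start, at chr7:30944090-30944149 for *Hamp* and chr7:30924242-30924301 for *Hamp2*. The annotation places the *Hamp* stretch before the gene and the *Hamp2* stretch in an intron of its longest transcript model. Capitals mark GGCGCC, the core of the BMP response element, and TTCNNNGAA, the motif of STAT proteins.
Hamp: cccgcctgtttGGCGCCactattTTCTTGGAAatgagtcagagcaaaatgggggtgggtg
Hamp2: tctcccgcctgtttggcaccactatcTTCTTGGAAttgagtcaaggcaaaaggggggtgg
*Hamp* carried both motifs, GGCGCC 109 to 104 bases and TTCTTGGAA 97 to 89 bases before its start. *Hamp2* carried the same STAT motif 94 to 86 bases before its start, but its aligned BMP site, at 106 to 101 bases, held the substitution G4A (position 4 counted from the 5′ end of GGCGCC). Over 250 bases before the start, 6 of the 10 genes were matched, with 9 promoters. Searched on both strands, GGCGCC was otherwise found in 1 of the *Tfrc* promoters, 89 to 84 bases before its start, and CACGTG, the E-box, in that of *Bmp6*, 127 to 122 bases before its start. TGATGNAA, the composite motif of ATF4 and CHOP, was found in none of the 9, and no matches overlapped. Among all 32851 RefSeq promoters of this length, 9.59% held GGCGCC, 7.02% TTCNNNGAA, 6.02% CACGTG and 3.45% TGATGNAA. A match describes letters in this window and no more.

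*Hamp*, which encodes hepcidin 1, was at 383 and 393 CPM in WT fasted liver (388 ± 7.18) and at 272 and 304 CPM in HRD1Alb fasted liver (288 ± 23.0). In refed liver it was at 524 and 441 CPM in WT (483 ± 58.6) and at 1095 and 1026 CPM in the libraries labelled HRD1Alb (1061 ± 49.1). The HRD1Alb libraries were thus the lowest of all when fasted and the highest of all when refed, and no group overlapped another. The fitted difference between HRD1Alb and WT was -0.43 on the log2 scale (SE 0.163) in fasted liver and 1.14 (SE 0.165) in refed liver, 0.743-fold and 2.2-fold. Refeeding was accompanied by a difference of 0.32 (SE 0.163) in WT and of 1.88 (SE 0.168) in HRD1Alb liver. The refed libraries labelled HRD1Alb were alike for this gene, replicate 1 at 2.27-fold and replicate 2 at 2.13-fold the WT refed mean, although only replicate 2 had a *Syvn1* level below both WT libraries.

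**Figure D1:**
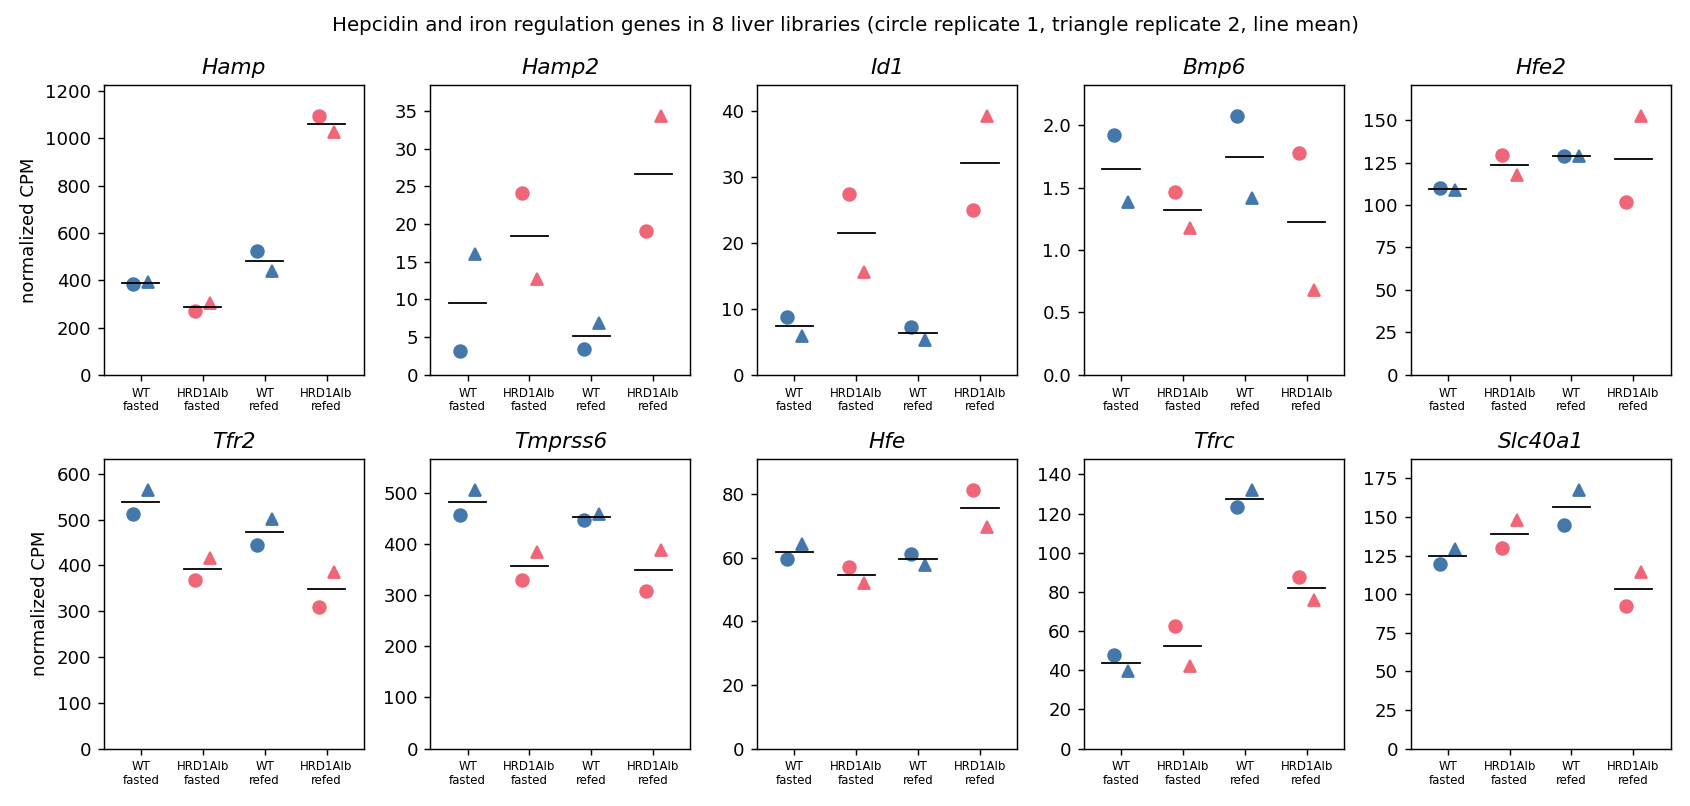
Normalized CPM (y axis, linear from 0) of the 10 genes in each of the 8 liver libraries, by group (x axis), with circles for replicate 1, triangles for replicate 2 and a line at the group mean. *Hamp* sits near 1061 CPM in HRD1Alb refed liver against 288 to 483 CPM in the other group means, and *Id1* is higher in all HRD1Alb libraries than in all WT libraries.

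Short transcripts as a class were higher in refed libraries labelled HRD1Alb, and *Hamp*, at 410 bases, is the shortest of the 10 genes. Among 110 tested genes of 300 to 600 bases the median difference between HRD1Alb and WT was 0.83 on the log2 scale in refed liver and 0.14 in fasted liver, and 42 of them (38.2%) exceeded *Hamp* in refed liver. Over all 12968 genes with a known length the refed median was 0.04, and 11.6% exceeded *Hamp*. Within the refed libraries labelled HRD1Alb, genes of this class were higher in replicate 2 than in replicate 1 by a median of 1.23 (log2), whereas *Hamp* differed by -0.10. When each library was corrected for transcript length, the refed difference of *Hamp* was 0.60 (SE 0.395), and with the replicate number as a block 0.53 (SE 0.36). Its fasted difference was then -0.53 (SE 0.395). The direction was the same in 16 of 16 alternatives for each of these contrasts. How far transcript length or RNA quality takes part in the refed difference was not tested.

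**Figure D2:**
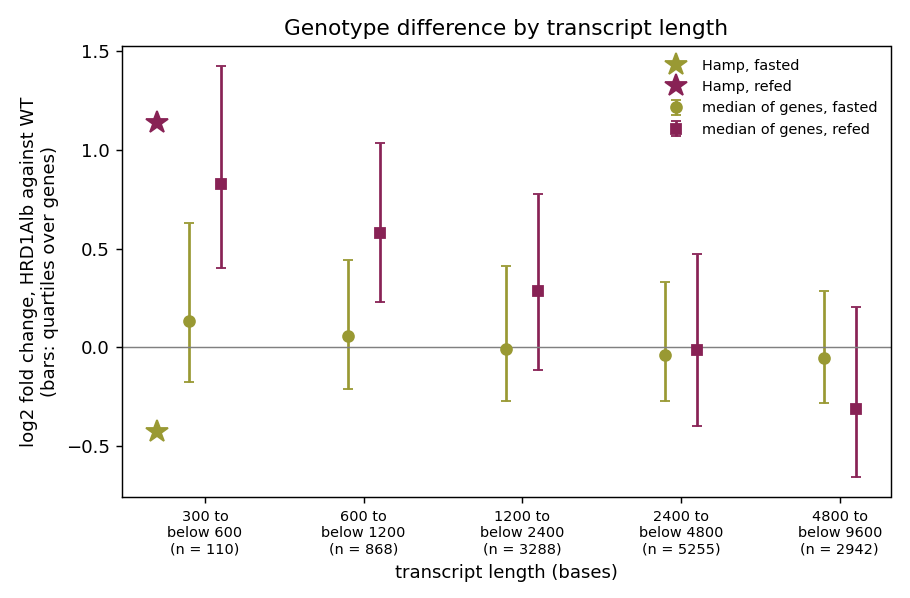
Log2 fold change of HRD1Alb against WT (y axis) by class of transcript length in bases (x axis, n genes in each class), with points at the class median and bars at the quartiles over genes, for fasted (circles) and refed liver (squares). The refed medians fall from 0.83 in the shortest class to -0.31 in the longest, while the fasted medians stay between -0.06 and 0.14. Stars mark *Hamp*.

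**Figure D3:**
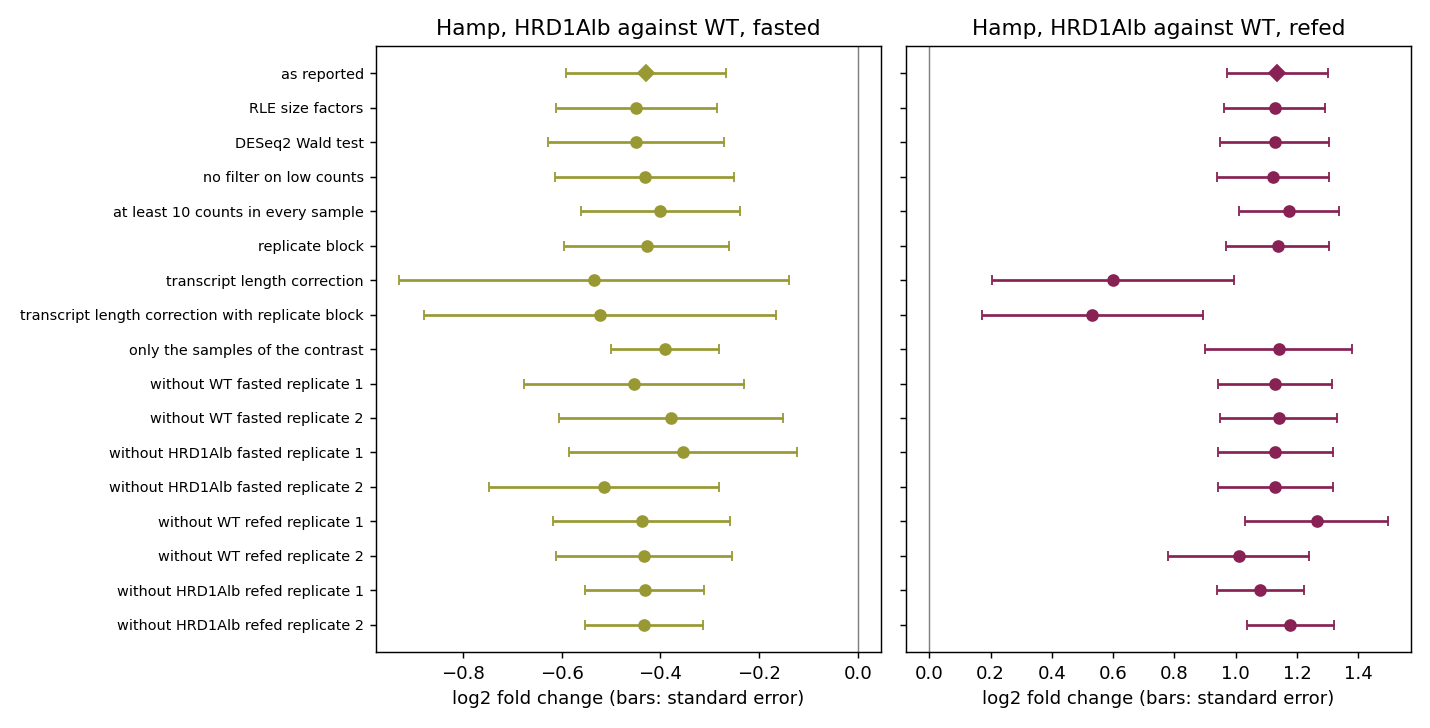
Log2 fold change of *Hamp*, HRD1Alb against WT (x axes, bars for the standard error), in fasted and in refed liver under each processing setting (y axis; the diamond is the reported value). Every value lies below 0 in fasted liver and above 0 in refed liver, and the length corrections bring the refed value down to 0.60 and 0.53.

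*Hamp2*, the second mouse hepcidin gene, was far less abundant and far more variable than *Hamp*. It was at 3.12 and 16.1 CPM in WT fasted, 24.2 and 12.7 CPM in HRD1Alb fasted, 3.46 and 6.93 CPM in WT refed and 19.0 and 34.3 CPM in HRD1Alb refed liver. The refed genotypes did not overlap, at 2.36 (log2, SE 0.764), and the fasted ones did, at 0.94 (SE 0.73). Under the length correction, which matters for its 437 bases, the refed difference was 1.645. Leaving out WT fasted replicate 1 brought the fasted difference to 0.19, and leaving out WT fasted replicate 2 brought it to 2.59. The longest coding transcripts of both genes were identical at 388 of 410 aligned bases (94.6%) and shared a run of 87 identical bases, so reads of one may be counted for the other and the *Hamp2* values are uncertain. *Hamp* counts exceeded *Hamp2* counts 11.2-fold to 152-fold across libraries.

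Of the genes that carry the BMP signal, the target *Id1* was higher in HRD1Alb liver under both feeding conditions. *Id1* encodes an inhibitor of DNA binding and is a direct SMAD target that is often read beside hepcidin. It was at 8.85 and 5.86 CPM in WT fasted, 27.5 and 15.6 CPM in HRD1Alb fasted, 7.31 and 5.36 CPM in WT refed and 25.0 and 39.3 CPM in HRD1Alb refed liver. The 4 HRD1Alb libraries were all above the 4 WT libraries, with differences of 1.55 (SE 0.373) fasted and 2.34 (SE 0.382) refed on the log2 scale. Under the length correction, which matters for its 1160 bases, the refed difference was 1.89. In fasted liver *Id1* was thus higher and *Hamp* lower in the same HRD1Alb libraries.

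*Bmp6* encodes the BMP ligand that liver sinusoidal endothelial cells make when iron is high. It was at 1.92 and 1.39 CPM in WT fasted, 1.47 and 1.18 CPM in HRD1Alb fasted, 2.07 and 1.42 CPM in WT refed and 1.78 and 0.679 CPM in HRD1Alb refed liver, from 31 to 105 counts a library. All groups overlapped, with a fitted difference of -0.32 (SE 0.475) fasted and -0.50 (SE 0.476) refed. The refed libraries labelled HRD1Alb held 105 and 31 counts, and the refed value was -1.37 without replicate 1 and 0.02 without replicate 2, so it turned on which of them was kept. The summed level of the 11 sinusoidal endothelial markers was 174 to 229 CPM in all libraries, and 0 of the 11 were called in either genotype contrast by edgeR or DESeq2, with 0 at an unadjusted p under 0.05.

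*Hfe2* encodes hemojuvelin, the co-receptor that presents BMP to its receptor on hepatocytes. It was at 110.3 and 109 CPM in WT fasted, 129 and 117 CPM in HRD1Alb fasted, 129 and 129 CPM in WT refed and 102 and 152 CPM in HRD1Alb refed liver. The refed libraries labelled HRD1Alb lay on either side of both WT libraries. The fitted differences were 0.17 (SE 0.206) fasted and -0.02 (SE 0.206) refed.

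A sensor and a brake at the hepatocyte surface, *Tfr2* and *Tmprss6*, were both lower in HRD1Alb than in WT liver at each feeding condition, with little difference by feeding. *Tfr2*, transferrin receptor 2, senses iron-loaded transferrin. It was at 513 and 565 CPM in WT fasted, 368 and 417 CPM in HRD1Alb fasted, 444 and 500.3 CPM in WT refed and 309.7 and 385 CPM in HRD1Alb refed liver. The genotypes did not overlap in either condition, at -0.46 (SE 0.178) fasted and -0.44 (SE 0.178) refed.

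*Tmprss6*, the protease matriptase-2 that cleaves hemojuvelin and holds hepcidin down, was at 457 and 506 CPM in WT fasted and 329 and 384 CPM in HRD1Alb fasted liver. In refed liver it was at 446 and 458 CPM in WT and 309 and 389 CPM in HRD1Alb. The genotypes again did not overlap, at -0.43 (SE 0.178) and -0.38 (SE 0.178). Both genes kept these signs in 16 of 16 alternatives. Both are expressed by hepatocytes, whose 9 markers summed to 137200 and 149600 CPM in WT fasted, 86880 and 87700 CPM in HRD1Alb fasted, 112600 and 118700 CPM in WT refed and 63180 and 102300 CPM in HRD1Alb refed liver. *Alb* made up most of this sum, at 101100 of 137200 CPM in WT fasted replicate 1. By edgeR 0 of the 9 were called in fasted liver (1.35% of all genes) and 1 of the 9, *Apob*, in refed liver (11.9%), as lower in HRD1Alb. In each condition 4 had an unadjusted p under 0.05. DESeq2 called 2 in fasted (7.64% of all genes) and 3 in refed liver (22.3%). The refed means of *Alb*, *Ttr*, *Apoa1*, *Apob*, *Cps1*, *Hnf4a* and *Serpina1c* were lower in HRD1Alb than in WT, and those of *Asgr1* and *Ass1* were higher. *Asgr1* was at 514 and 570 CPM in WT refed and 413.5 and 763 CPM in HRD1Alb refed liver. Its fasted means were 535.5 CPM in WT and 413 CPM in HRD1Alb. In whole liver, fewer cells of a type and less RNA per cell cannot be told apart.

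*Hfe*, the hemochromatosis gene whose product pairs with transferrin receptors, was at 59.6 and 64.3 CPM in WT fasted, 57.1 and 52.0 CPM in HRD1Alb fasted, 61.2 and 57.8 CPM in WT refed and 81.4 and 69.7 CPM in HRD1Alb refed liver. It was lower in HRD1Alb fasted liver by a small margin, at -0.18 (SE 0.155), and higher in HRD1Alb refed liver, at 0.34 (SE 0.156), with no overlap in either. The directions of its genotype differences were those of *Hamp*. With refeeding in WT it differed by -0.06 (SE 0.155), where *Hamp* differed by 0.32 (SE 0.163).

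*Tfrc* and *Slc40a1* move iron into and out of cells, and both were lower in HRD1Alb than in WT liver when refed. Their fitted fasted differences were above 0 but no larger than about their SE. *Tfrc*, transferrin receptor 1, takes up iron-loaded transferrin, and its mRNA is stabilized by iron regulatory proteins when cells lack iron. It was at 47.6 and 39.5 CPM in WT fasted and 62.4 and 42.3 CPM in HRD1Alb fasted liver, which overlapped. In refed liver it was at 123 and 132 CPM in WT and at 87.7 and 76.0 CPM in HRD1Alb, which did not. Refeeding was accompanied by a difference of 1.55 (SE 0.224) in WT and 0.64 (SE 0.219) in HRD1Alb liver. The difference between HRD1Alb and WT was 0.26 (SE 0.219) fasted and -0.64 (SE 0.219) refed. Leaving out HRD1Alb fasted replicate 1 turned the fasted value to -0.05. *Tfrc* is long, at 5196 bases, and genes of 4800 to 9600 bases had a median refed difference of -0.31. Under the length correction with the replicate block its refed difference was -0.37, and its difference with refeeding in HRD1Alb liver was 0.98. The part of transcript length in these *Tfrc* values was not tested.

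*Slc40a1*, ferroportin, exports iron and is the target of hepcidin. It was at 119.5 and 129.5 CPM in WT fasted, 130.1 and 148 CPM in HRD1Alb fasted, 145 and 168 CPM in WT refed and 92.6 and 114 CPM in HRD1Alb refed liver. The libraries labelled HRD1Alb refed were the lowest of all, at -0.60 (SE 0.176) against WT refed, and the fasted genotypes were just separate, at 0.16 (SE 0.175). Because macrophages express ferroportin strongly, their markers stand beside it: the 11 markers summed to 148 and 133 CPM in WT fasted, 462 and 352 CPM in HRD1Alb fasted, 150.0 and 151 CPM in WT refed and 330.1 and 739 CPM in HRD1Alb refed liver. By edgeR 2 of the 11 were called, as higher, in fasted (1.35% of all genes) and 10 of the 11 in refed HRD1Alb liver (11.9%). DESeq2 called 10 (7.64% of all genes) and 11 (22.3%), and all 11 had an unadjusted p under 0.05 in each. The marker sum and *Slc40a1* thus differed in opposite directions in refed liver. The part of macrophages in the *Slc40a1* values was not tested.

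**Figure D4:**
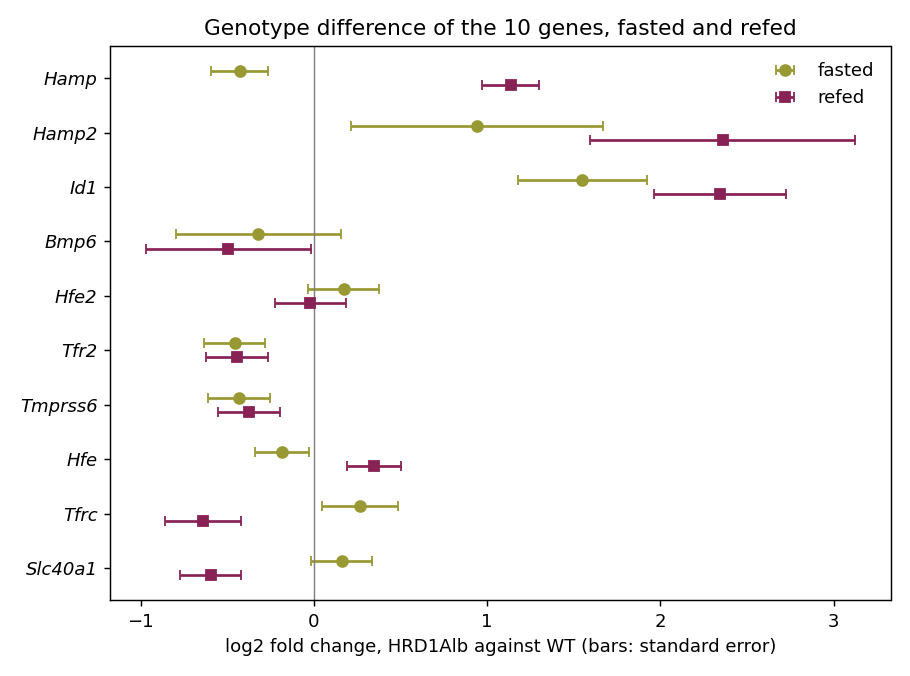
Log2 fold change of HRD1Alb against WT (x axis, bars for the standard error) of the 10 genes (y axis) in fasted (circles) and refed liver (squares), from the fit to all 8 libraries. *Hamp*, *Hfe*, *Tfrc*, *Slc40a1* and *Hfe2* lie on opposite sides of 0 in the 2 conditions, whereas *Id1*, *Tfr2*, *Tmprss6*, *Bmp6* and *Hamp2* keep their side.

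Per kilobase of transcript, which scales each gene by its length, the order of the 10 genes was led by *Hamp* at 702 to 2587 CPM per kb across the group means. This scaling does not remove the trend with length between the refed libraries labelled HRD1Alb (rho = -0.581). Levels of short and long genes are therefore less comparable in that group. *Tfr2* followed at 105 to 162 CPM per kb and *Tmprss6* at 109 to 151 CPM per kb, and these neighbours were not separate in any group. *Hfe2* at 54.0 to 63.5 CPM per kb and *Slc40a1* at 30.7 to 46.4 CPM per kb came next. *Hamp2*, at 11.9 to 61.0 CPM per kb, passed *Slc40a1* in the means of both HRD1Alb groups, with overlapping libraries in fasted liver. *Hfe*, *Tfrc* and *Id1* lay between 5.46 and 27.7 CPM per kb and changed order between groups. *Bmp6* was last at 0.342 to 0.486 CPM per kb.

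Set against all genes, the 10 genes were separate between groups about as often as genes in general. In fasted liver 7 of 10 did not overlap between genotypes (3 higher and 4 lower in HRD1Alb), where 64.9% of all tested genes did not, and in refed liver 8 of 10 (4 higher and 4 lower), where 60.8% did not. Between feeding conditions 5 of 10 did not overlap in WT and 4 of 10 in HRD1Alb liver, against 60.4% and 58.7% of all genes. At an adjusted p under 0.05 in the edgeR fit, 0 of 10 passed in the fasted genotype contrast (1.35% of all genes) and 2 of 10, *Hamp* and *Id1*, in the refed one (11.9%). With refeeding 1 passed in WT, *Tfrc* (2.61%), and 1 in HRD1Alb, *Hamp* (10.5%). Since the genes were chosen with results of these contrasts known, nothing is read from these counts. The median difference of the 10 genes was -0.01 fasted and -0.20 refed, against -0.02 and 0.04 over all genes.

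In the fasted contrast 4 of the 10 had an unadjusted p under 0.05, and DESeq2 called 1, *Id1* (7.64% of all genes). In the refed contrast DESeq2 called 5 (22.3%), and with refeeding it called 1 in WT (7.58%) and 2 in HRD1Alb liver (20.4%). Whether the genotype difference itself differed between the feeding conditions was fitted as an interaction, which was 1.56 (SE 0.232) for *Hamp*, -0.76 (SE 0.248) for *Slc40a1* and -0.91 (SE 0.31) for *Tfrc*. By edgeR 0 of 10 passed (0% of all genes), with 4 at an unadjusted p under 0.05, and DESeq2 called 1, *Hamp* (0.733%). Without the library labelled HRD1Alb refed replicate 1, the edgeR fit called 4 of the 10 in fasted liver (21.7% of all genes), 6 in refed liver (52.8%) and 3 in the interaction (33.4%). Without replicate 2 it called 4 (21.3%), 6 (23.7%) and 1 (0.69%), and *Hamp* was among them in these 6 counts. The refed call of *Hamp* was lost under both length corrections, with the refed libraries alone and without either WT refed library, and that of *Id1* was lost with the refed libraries alone and without either WT refed library. The call of *Hamp* with refeeding in HRD1Alb liver was lost under both length corrections, with the HRD1Alb libraries alone and without either HRD1Alb fasted library. The call of *Tfrc* in WT liver was lost when any library but those labelled HRD1Alb refed was left out.

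Without the library labelled HRD1Alb refed replicate 1, whose *Syvn1* level lay among the WT libraries, the refed differences between HRD1Alb and WT were 1.08 for *Hamp*, 2.72 for *Hamp2*, 2.62 for *Id1* and 0.22 for *Hfe*. They were then -0.30 for *Tfr2*, -0.23 for *Tmprss6*, -0.76 for *Tfrc* and -0.46 for *Slc40a1*, so that these 8 genes kept their sign, while *Hfe2* turned from -0.02 to 0.24 and *Bmp6* moved to -1.37.

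Over the 8 libraries, *Hfe* was the member whose log2 CPM was most like that of *Hamp* (Pearson r = 0.888) and *Slc40a1* the least like it (r = -0.648). Among the other tested genes with a mean of at least 1 CPM, the highest r were those of *Nop2* (0.988), *Cdc42se1* (0.987), *Fam174b* (0.987), *Emd* (0.985) and *Mettl13* (0.983). The lowest were those of *Zc3h12d* (-0.978), *Scaper* (-0.975), *Scarb1* (-0.973), *Nfia* (-0.972) and *Asb7* (-0.972). These are descriptions over 8 points that share libraries and their depth, and the points of 1 group lie together.

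Beyond the 10 genes, 90 companion genes in 5 lists were found, of which 87 were tested. Not all are iron genes: *Ddit3*, *Cebpb*, *Il6ra* and *Inhbb* came from the list of stress and IL-6 inputs. They were tested across all genes with edgeR's quasi-likelihood test and Benjamini-Hochberg adjustment. The lists were chosen with earlier results of these data known, so their calls and adjusted p-values are description. The paper had already reported raised *Ddit3* after HRD1 deletion. In fasted liver 2 of 87 (2.3%) were called, both higher in HRD1Alb, and in refed liver 14 (16.1%), of which 7 rose and 7 fell, beside 1.35% and 11.9% of all genes. Their median difference was -0.17 fasted and -0.16 refed. Leaving out a library changed the refed count: it was 5 without either WT fasted library, 4 without either HRD1Alb fasted library, 1 without either WT refed library, 56 without HRD1Alb refed replicate 1 and 29 without HRD1Alb refed replicate 2. The count over all genes moved with it, from 1709 to 776 and 751 (WT fasted), 414 and 426 (HRD1Alb fasted), 1 and 2 (WT refed), 7705 (HRD1Alb refed replicate 1) and 3466 (HRD1Alb refed replicate 2). The fasted count was 0 when any library but those labelled HRD1Alb refed was left out, where 0 to 23 of all genes were called, and 19 without either of these, where 3159 and 3118 of all genes were. With the 4 refed libraries alone the refed count was 0. Over 16 alternatives the refed call of *Ddit3* was kept in 15, those of *Hmox1*, *Epas1* and *Il6ra* in 13, that of *Gdf2* in 11 and the other 9 in 5 to 9. Under the length correction *Abcg2*, *Aco1* and *Id3* were no longer called in refed liver.

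Of the genes called in refed liver, those furthest from 0 in each direction belonged to the list of stress and IL-6 inputs. *Ddit3*, which encodes the stress factor CHOP, was at 6.66 and 5.62 CPM in WT fasted, 15.5 and 14.8 CPM in HRD1Alb fasted, 16.1 and 11.3 CPM in WT refed and 251 and 241 CPM in HRD1Alb refed liver. It rose by 1.30 (SE 0.206, adjusted p = 0.0395 by edgeR) in fasted and 4.17 (SE 0.226, adjusted p = 0.00126 by edgeR) in refed HRD1Alb liver. *Il6ra*, the receptor subunit that binds IL-6, was at 27.9 and 25.7 CPM in WT refed and 5.65 and 2.10 CPM in HRD1Alb refed liver and fell by 2.78 (SE 0.437, adjusted p = 0.0149 by edgeR). *Cebpb*, a transcription factor of the acute phase, rose 2.34-fold (adjusted p = 0.0249 by edgeR). Counting *Inhbb*, the activin B subunit at 0.499 to 2.86 CPM, 4 of 12 tested members were called in refed liver (11.9% of all genes). Of these, 3 were higher and 1 lower. *Inhbb* lies outside the rule for named genes and was added after its values were seen. The most abundant member, *Creb3l3*, a membrane-bound factor of the stressed endoplasmic reticulum, was at 402 and 356 CPM in WT refed and 271 and 537 CPM in HRD1Alb refed liver and did not pass (adjusted p = 0.838 by edgeR).

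In the BMP and SMAD list edgeR called 4 of 25 tested members in refed liver (11.9% of all genes) and 0 in fasted liver (1.35%). In fasted liver 2 had an unadjusted p under 0.05 and DESeq2 called 1 (7.64% of all genes). *Gdf2*, which encodes BMP9, was at 11.2 and 14.4 CPM in WT refed and 26.7 and 32.1 CPM in HRD1Alb refed liver, a rise of 1.20 (SE 0.247, adjusted p = 0.029 by edgeR). *Id3*, a relative of *Id1* and a BMP target, was at 97.8 and 72.8 CPM in WT refed and 142 and 187 CPM in HRD1Alb refed liver and rose by 0.95 (SE 0.221, adjusted p = 0.0385 by edgeR). *Atoh8*, a transcription factor gene that BMP signals raise, was at 18.3 and 20.0 CPM in WT refed and 39.5 and 28.6 CPM in HRD1Alb refed liver and rose 1.78-fold (adjusted p = 0.0383 by edgeR). *Smad9*, which encodes SMAD8, was at 8.94 and 10.6 CPM in WT refed and 4.82 and 3.35 CPM in HRD1Alb refed liver and fell by 1.25 (SE 0.266, adjusted p = 0.0309 by edgeR). Several stellate and macrophage markers, given above, were called as higher in the same HRD1Alb refed libraries. The part of cell types in these values and in those of *Id1* was not tested. The inhibitory SMAD genes *Smad6* and *Smad7*, which BMP signals usually raise as well and which were picked here after their values were seen, had differences of 0.14 (SE 0.408) and 0.26 (SE 0.202) and did not pass. *Fgl1*, a hepatokine that blocks BMP6 and the most abundant gene of the list, was at 354 and 805 CPM in WT refed and 361 and 674 CPM in HRD1Alb refed liver and did not pass either (adjusted p = 0.82 by edgeR).

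**Figure D5:**
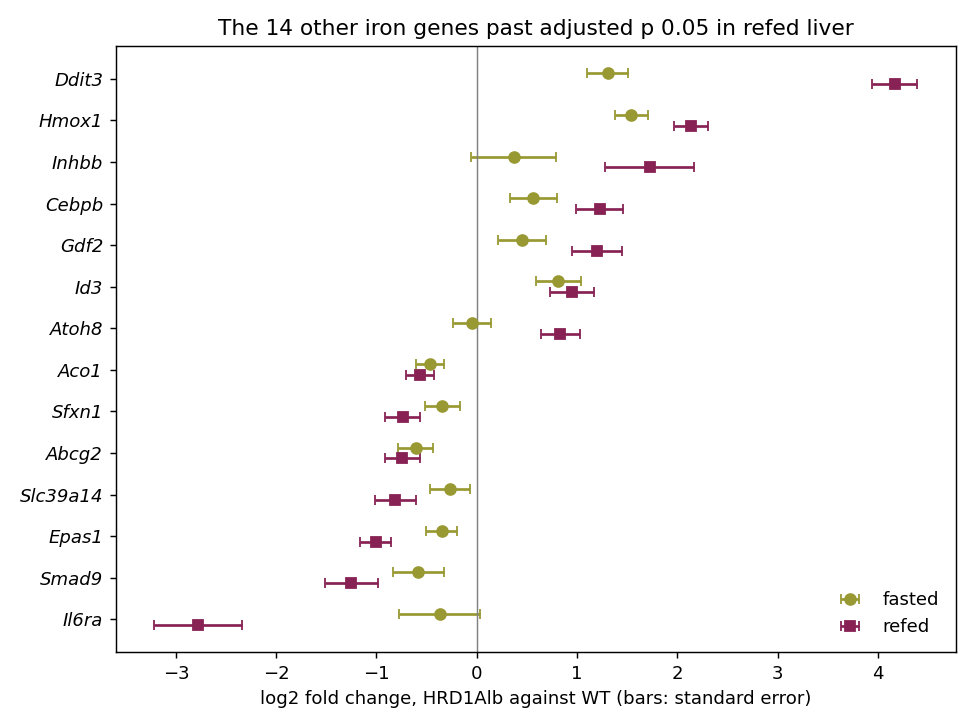
Log2 fold change of HRD1Alb against WT (x axis, bars for the standard error) of the 14 companion genes past an adjusted p of 0.05 in refed liver (y axis), shown for fasted (circles) and refed liver (squares). They include stress and IL-6 inputs, *Ddit3* and *Il6ra* among them. *Ddit3* reaches 4.17 and *Il6ra* -2.78 in refed liver, and the other 12 lie between these.

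Among genes of heme handling, *Hmox1*, the heme oxygenase that frees iron from heme, rose in both conditions. It was at 10.7 and 11.7 CPM in WT fasted, 34.5 and 30.8 CPM in HRD1Alb fasted, 15.2 and 12.9 CPM in WT refed and 61.6 and 61.8 CPM in HRD1Alb refed liver. The rise was 1.54 (SE 0.164, adjusted p = 0.0156 by edgeR) fasted and 2.14 (SE 0.166, adjusted p = 0.00284 by edgeR) refed. Macrophages express *Hmox1* too, and their markers, given above, were higher in the same libraries; their part in it was not tested. *Abcg2*, an exporter of porphyrins, was at 125 and 122 CPM in WT refed and 70.6 and 77.1 CPM in HRD1Alb refed liver and fell by 0.74 (SE 0.177, adjusted p = 0.0409 by edgeR). In all 1 of 17 tested members was called in fasted (1.35% of all genes) and 2 of 17 in refed liver (11.9%). *Hp*, haptoglobin, the most abundant, was at 3804 and 5967 CPM in WT refed and 2330 and 5864 CPM in HRD1Alb refed liver (adjusted p = 0.68 by edgeR). The erythroid markers *Hba-a1*, *Hba-a2*, *Hbb-b1* and *Hbb-b2* were listed at 0 in every library, and the other 4 of the list of 8 were tested. *Alas2*, the erythroid enzyme of heme synthesis, was at 82.3 and 74.4 CPM in WT fasted, 20.0 and 43.4 CPM in HRD1Alb fasted, 105 and 78.6 CPM in WT refed and 54.7 and 48.8 CPM in HRD1Alb refed liver, with no overlap between the genotypes. By edgeR 0 of the 4 were called in either contrast, with 1 at an unadjusted p under 0.05 in each. DESeq2 called 1 in fasted (7.64% of all genes) and 0 in refed liver (22.3%).

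Of the iron transport and storage genes edgeR called 0 of 21 in fasted liver (1.35% of all genes), with 1 at an unadjusted p under 0.05. DESeq2 called 1 in fasted liver (7.64% of all genes). In refed liver edgeR called 2 of 21 (11.9% of all genes), both lower in HRD1Alb. *Sfxn1*, known as a mitochondrial serine carrier, was at 169.6 and 179.6 CPM in WT refed and 100.1 and 109 CPM in HRD1Alb refed liver and fell by 0.74 (SE 0.174, adjusted p = 0.0394 by edgeR). The other was *Slc39a14*, the iron importer ZIP14, at 227 and 254 CPM against 162 and 112 CPM, which is named after its values were seen. *Trf*, transferrin, the most abundant gene of the list, was at 12030 and 13060 CPM in WT refed and 8314 and 11080 CPM in HRD1Alb refed liver and did not pass (adjusted p = 0.269 by edgeR).

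Of the sensors of cellular iron and oxygen edgeR called 0 of 12 in fasted liver (1.35% of all genes), with 2 at an unadjusted p under 0.05. DESeq2 called 1 in fasted liver (7.64% of all genes). In refed liver edgeR called 2 of 12 (11.9% of all genes), both lower in HRD1Alb. *Epas1*, which encodes HIF-2α, was at 153 and 177 CPM in WT refed and 85.3 and 78.8 CPM in HRD1Alb refed liver and fell by 1.01 (SE 0.159, adjusted p = 0.0149 by edgeR). *Aco1*, iron regulatory protein 1 and the most abundant gene of the list, was at 272 and 291 CPM in WT refed and 188 and 192 CPM in HRD1Alb refed liver and fell by 0.57 (SE 0.139, adjusted p = 0.0435 by edgeR). Its fasted values were 269 and 268 CPM in WT and 197 and 192 CPM in HRD1Alb liver, a difference of -0.47 that did not pass (adjusted p = 0.143 by edgeR).

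With refeeding 3 of 87 companion genes were called in WT liver (2.61% of all genes), *Ddit3* and *Id3* as higher and *Smad9* as lower. In HRD1Alb liver 14 were called (10.5% of all genes), 11 higher and 3 lower, these 3 genes among them. *Smad9* fell by 1.54 (SE 0.263, adjusted p = 0.0356 by edgeR) in WT and by 2.21 (SE 0.271, adjusted p = 0.00734 by edgeR) in HRD1Alb liver. For the interaction of genotype and feeding DESeq2 called 2 of 87 (0.733% of all genes). The interaction by edgeR called 0 of 87 (0% of all genes), with 9 at an unadjusted p under 0.05. It called 40 without HRD1Alb refed replicate 1 and 2 without HRD1Alb refed replicate 2. The WT count was 0 when any library but those labelled HRD1Alb refed was left out and 25 without either of these, and the HRD1Alb count was between 1 and 52.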

How the data were processed

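Per the study's methods, the authors isolated liver RNA with TRIzol, sequenced each library on a NextSeq 500 lane and used ERANGE to obtain gene counts. The submitters' processing notes name cutadapt, STAR, HTSeq, DESeq2 and mm10 instead, without roles. The deposited files hold whole-number counts per gene symbol, with no normalization. Strandedness and read length are not given in the sources used here.

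Counts were analysed with edgeR 4.0.16 in R 4.3.3: filterByExpr (minimum count 10, minimum total 15), TMM, a quasi-likelihood model of 4 group means over 8 libraries, and Benjamini-Hochberg adjustment over 14328 genes. The study used limma on RPKM; the deposited unit is counts. The SE is the absolute log2 fold change over the square root of F. Of 2 libraries against 2, an exact permutation test cannot give a p below 0.333, so p-values rest on the spread shared across genes. Lengths and positions are from GENCODE M21 (GRCm38) and cover 90.5% of tested genes. Promoters are RefSeq windows on GRCm38.p6 and were aligned with Biopython 1.88. The model fit was checked on simulated counts that had the same spread in all libraries and no trend with length. The check therefore does not cover the wider spread and length trend of the libraries labelled HRD1Alb refed. Plots were made with matplotlib 3.10.9 (Python 3.11.15).

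The members and lists were chosen with earlier results of these data known. Named were every member, companion genes past the threshold in a genotype contrast (up to 12 by p), the most abundant gene of each list, and the 5 genes most and 5 least like *Hamp* over the libraries (log2 CPM with a prior count of 1). The symbols *Flvcr1* and *Flvcr2* were not found, and *Nog*, *Bmpr1b* and *Il6* were not tested. Alternatives were RLE size factors, DESeq2 1.42.0, no filter, at least 10 counts in every library, the contrast's libraries alone, the replicate block, a length correction, and each library left out.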

Additional observations from a re-analysis of the deposited data

Results flagged for a closer look

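*Hamp*, *Hfe* and *Slc40a1* were flagged by a rule: the genotypes did not overlap in either feeding condition, and the directions were opposite. Of all tested genes, 64.9% did not overlap between genotypes in fasted and 60.8% in refed liver. The share of all genes that met the whole rule was not counted, so the flag does not show these genes to be unusual. *Hamp* and *Hfe* were lower in both HRD1Alb fasted libraries and higher in both HRD1Alb refed libraries than in the WT libraries of the same feeding condition, and *Slc40a1* was higher when fasted and lower when refed. The fitted interactions were 1.56 for *Hamp*, 0.53 for *Hfe* and -0.76 for *Slc40a1* on the log2 scale. In the edgeR fit, with Benjamini-Hochberg adjustment over all genes, these interactions did not pass (adjusted p = 0.523 for *Hamp*, 0.587 for *Hfe* and 0.561 for *Slc40a1*), and DESeq2 called that of *Hamp*. The genes were chosen with earlier results known, so nothing is read from these outcomes. Without the library labelled HRD1Alb refed replicate 1, whose *Syvn1* level lay among the WT refed libraries, the refed differences were 1.08, 0.22 and -0.46, with the same signs.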

How the results depend on the processing

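The counts of companion genes depended on the processing setting and on which libraries were fitted. Under DESeq2 they were 7 (fasted genotype), 27 (refed genotype), 11 (refeeding in WT) and 2 (interaction). Of all genes DESeq2 called 7.64%, 22.3%, 7.58% and 0.733% in these contrasts. Without a filter on low counts the interaction called 1, beside 0.0111% of all genes. With only the libraries of the contrast the companion counts were 10, 0, 17 and, for refeeding in HRD1Alb, 0, beside 14.6%, 0%, 14% and 0% of all genes. The interaction uses all libraries and has no such fit. Under the transcript length correction the fasted count was 1 (4.79% of all genes) and that of refeeding in WT 8 (5.56%), and 5 (4.98%) with the block added. Leaving out each library in turn gave 0 to 19 (fasted), 1 to 56 (refed), 0 to 25 (refeeding in WT), 1 to 52 (refeeding in HRD1Alb) and 0 to 40 (interaction). The causes were not tested.

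For *Hamp* the length correction gave -0.53 (fasted genotype), 0.60 (refed genotype), 0.15 (refeeding in WT) and 1.28 (refeeding in HRD1Alb), and with the block -0.52, 0.53, 0.12 and 1.18. Leaving out each library gave -0.52 to -0.35, 1.01 to 1.26, 0.18 to 0.44 and 1.80 to 1.96. Its sign was the same in 16 of 16 alternatives of each contrast. Of the 10 genes, DESeq2 called 1, 5, 1 and 2 in these contrasts (7.64%, 22.3%, 7.58% and 20.4% of all genes). By edgeR 0, 2, 1 and 1 were called (1.35%, 11.9%, 2.61% and 10.5%).

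Same-numbered libraries deviated together only weakly (r = 0.016 to 0.179 over 6 pairs, mean 0.0688), so the numbers were not taken as pairs. With the replicate block the refed count of companion genes was 9 (9.74% of all genes) and that of refeeding in WT 1 (2.13%).

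Over all genes, the fasted genotype count of 194 became 1094 under DESeq2, 323 without a filter, 119 with the block, 687 under the length correction and 2033 with the contrast's libraries alone. The refed count of 1709 became 3190, 2610 and 0 under DESeq2, the length correction and the contrast's libraries. Leaving out each library gave 0 to 3159 (fasted) and 1 to 7705 (refed), so the shares of 1.35% and 11.9% hold for the fit to all 8 libraries. A count of 31, the lowest of *Bmp6*, limits the precision of that gene.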
